A study of Mus musculus with 16 samples.

Results

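The difference of the CD70 transgene effect between 2 fractions of mouse hematopoietic stem cells (HSC) was examined, that is, the effect in CD34+ cells minus the effect in CD34- cells. The contrast, an interaction of genotype and fraction, used 16 of the 16 bead arrays, chosen by their titles. CD70TG mice were IFNgamma-/- and carried a CD70 transgene, and the control mice were IFNgamma-/- without it, so all animals lacked interferon gamma. The strain was C57Bl/6 in every group, and the RNA of 2 mice was pooled for every array. The groups were CD70TG CD34+, control CD34+, CD70TG CD34- and control CD34-, with 4 independent pools in each. The labels call CD34+ cells short-term HSC and CD34- cells long-term HSC, both within the c-Kit+ Sca-1+ gate of cells without lineage markers, but the sort protocol lists CD34-Flt3- for both of them. The sources used here give neither the promoter of the transgene nor the age of the mice, nor whether both fractions came from one set of mice. A positive value of the contrast means that the transgene effect was higher in CD34+ than in CD34- cells, and a negative value that it was lower.

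CD70 is a TNF family ligand that binds CD27, a receptor on lymphocytes and early hematopoietic cells. Excess CD70 activates T cells, which release cytokines, interferon gamma among them, that reach stem cells in the marrow. Long-term HSC renew themselves for life, whereas short-term HSC, which gain surface CD34 in the mouse, are the next step towards the blood lineages. Marrow macrophages, which form part of the niche around stem cells, are known for the complement C1q chains, scavenger receptors and the handling of iron and lipids from engulfed red cells.

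Array medians lay between 6.427 and 6.531 on the deposited log2-like scale, replicates correlated with r of 0.986 to 0.996, and 50.2% to 57.5% of the probes of an array were above background (a threshold of 6.3 to 6.5, by array). The sorted label was checked against Cd34 itself, whose transcript showed an interaction of 0.08 (95% interval -0.29 to 0.45, limma adjusted p = 0.982). Between the fractions its transcript differed by -0.09 in CD70TG cells (adjusted p = 0.813) and by -0.17 in control cells (adjusted p = 0.438), so the arrays give no transcript check of the fraction labels. The Cd70 probe read 6.67, 6.89, 6.78 and 6.86 on the CD70TG CD34+ arrays and 7.90, 9.60, 8.56 and 7.11 on the control CD34+ arrays, against 5.81 to 6.09 on the CD70TG CD34- arrays and 6.05 to 6.21 on the control CD34- arrays. The control CD34+ arrays were thus the highest and the most scattered, and no CD70TG CD34+ array stood above a control CD34+ array. In the CD34- fraction the genotypes overlapped, with no array above background. Whether this probe detects the transgene's transcript, and which cells carry it, is stated in no source used here, so it does not check the genotype labels. Ifng stayed near background on all arrays, with an interaction of -0.06 (-0.28 to 0.16, adjusted p = 0.978).

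The transgene effect was much alike in the 2 fractions over the genome, and the part that differed was small and ran mostly one way. Of 11849 genes and unnamed probes tested, 42 (0.354%) differed in their transgene effect between CD34+ and CD34- cells (limma, Benjamini-Hochberg adjusted p under 0.05). The effect was lower in CD34+ cells for 37 of them (0.312% of all tested), by -2.81 to -0.63 log2, and higher for 5 (0.0422%), by 0.47 to 1.12 log2. The 1.12 is that of the unnamed probe ILMN_1241293, which lost its call in 14 of 16 fits that left out 1 array (adjusted p up to 0.126). Of the 35 named lower genes, 11 were listed macrophage and monocyte markers, of which 18 were measured. They included the receptors Mrc1 and Axl, the C1q chains and the iron exporter Slc40a1. Among the called genes, the lipid enzyme Lpl had the most negative difference, -2.81 ± 0.32 (SE; 4 arrays a group; adjusted p = 0.000184). The endocytic recycling gene Ehd3 led the named genes with a higher effect by its adjusted p, with 1.05 ± 0.16 (adjusted p = 0.00221).

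**Figure D1:**
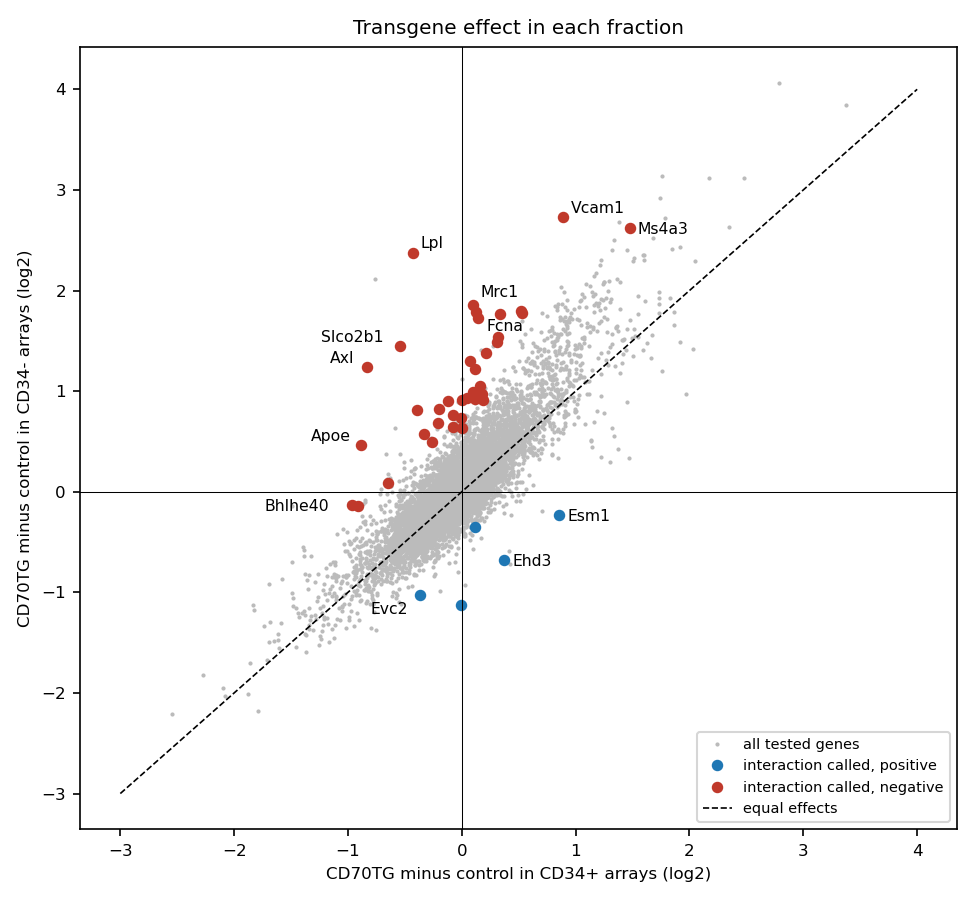
Each point is 1 tested gene, with the transgene effect in CD34+ arrays on the x axis and in CD34- arrays on the y axis (both log2, CD70TG minus control), and the dashed line marks equal effects. The 37 genes with a lower effect in CD34+ cells (red) lie above the line, most of them near 0 on the x axis and above 0.5 on the y axis, and the 5 with a higher effect (blue) lie below it.

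For comparison, the transgene effect itself was called for 2152 genes (18.2%) in CD34+ cells and for 3288 (27.7%) in CD34- cells. Both fractions shared 1610 of these, 1604 in the same direction and 6 in opposite directions, and across all tested genes the 2 effects correlated with r = 0.857. These 2 contrasts share no arrays, but genes are not independent replicates. In CD34- cells 1891 calls were higher and 1397 lower, a split that became 1618 higher and 2001 lower with quantile normalization. With an array index of probe disagreement as a covariate, calls numbered 1007 in CD34+ cells and 644 in CD34- cells, so the order of the fractions in these counts depends on the fit. A further 1678 genes were called in CD34- cells alone, of which 27 had a called interaction, and 542 in CD34+ cells alone, of which 4 had one. The remaining genes called in 1 fraction alone were therefore not shown to differ between the fractions. The scatter of both effects shows the cloud along the line of equal effects, with the called genes at its edges.

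The interaction had a median SE of 0.162 log2, against 0.115 for the transgene effect in 1 fraction, since it rests on 4 group means and not on 2. Its 95% interval lay within 1 log2 either side of 0 for 11277 genes (95.2%), so larger differences are bounded for most genes and smaller ones are not. At an unadjusted p under 0.05 there were 869 genes (7.33%), 251 higher and 618 lower. Requiring a fold over 1.2 left 19 calls (1 higher, 18 lower), and testing only genes above background on all 16 arrays, a setting added after the data were seen, left 18 (1 higher, 17 lower).

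The dominant pattern among the 37 genes with a lower effect was a high level in CD70TG CD34- cells. In 33 of them that group was the highest of the 4, and 34 were called up by the transgene in CD34- cells (16% of all tested genes were). The contrast that picked these genes subtracts the effect in CD34- cells. Both counts therefore follow in part from the selection and are no separate support. In CD34+ cells, 5 of the 37 were called up by the transgene (7.57% of all tested) and 7 down (10.6%). All 37 were above background on every CD70TG CD34- array, but 6 were on no CD34+ array, 12 on 1 to 7 and 19 on all 8. On all 16 arrays, 20 of the 42 were above background, against 75.7% of all tested genes. For those 6, Fcna, C1qc, Hpgd, Siglec1, Chp2 and Hmox1, the effect in CD34+ cells could not be read, since both genotypes were at background there. Siglec1 and Chp2 passed the filter on dim probes through the CD70TG CD34- arrays alone, which by itself required them to be high in that group. In bulk samples, fewer cells of a type and less RNA per cell cannot be told apart.

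Fcna encodes ficolin A, a lectin that starts the complement cascade. It read 6.25, 6.24, 6.27 and 6.31 on the CD70TG CD34+ arrays and 6.08, 6.17, 6.19 and 6.11 on the control CD34+ arrays, against 9.51, 9.89, 9.69 and 9.50 on the CD70TG CD34- arrays and 8.04, 7.74, 7.79 and 7.87 on the control CD34- arrays. All CD34+ arrays were at background, and the CD34- arrays of the genotypes did not overlap. The transgene effect was 1.79 in CD34- cells (adjusted p = 2.06e-09). The measured difference of -1.66 ± 0.14 (adjusted p = 3.74e-06) is taken against CD34+ values at background, so its true size is not known.

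Mrc1, the mannose receptor of macrophages, had 6.38, 6.55, 6.61 and 6.48 in CD70TG CD34+ cells and 6.27, 6.40, 6.45 and 6.53 in control CD34+ cells, against 9.22, 8.92, 9.69 and 9.24 in CD70TG CD34- cells and 7.41, 7.29, 7.52 and 7.44 in control CD34- cells. The CD34+ arrays of the genotypes overlapped close to background, while every CD70TG CD34- array exceeded every other array by more than 1 log2. Its interaction was -1.76 ± 0.18 (adjusted p = 4.15e-05).

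Lpl, lipoprotein lipase, releases fatty acids from lipoproteins and was well above background throughout. Its levels were 7.87, 8.38, 7.97 and 7.73 in CD70TG CD34+ cells and 7.71, 8.61, 8.47 and 8.88 in control CD34+ cells, against 12.35, 12.00, 12.34 and 11.61 in CD70TG CD34- cells and 9.84, 9.46, 10.04 and 9.45 in control CD34- cells. The CD34+ arrays of the genotypes overlapped and those of the CD34- fraction were far apart. The transgene effect was -0.43 in CD34+ cells (adjusted p = 0.193) and 2.38 in CD34- cells (adjusted p = 4.47e-07).

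The 3 chains of C1q, the molecule that starts the classical complement pathway, had lower effects in CD34+ cells by -0.91 ± 0.14 (C1qa, adjusted p = 0.00227), -1.58 ± 0.20 (C1qb, adjusted p = 0.000447) and -0.89 ± 0.11 (C1qc, adjusted p = 0.000418). C1qb had 6.22, 6.43, 6.23 and 6.09 in CD70TG CD34+ cells and 6.02, 6.16, 6.05 and 6.17 in control CD34+ cells, against 9.22, 9.84, 9.46 and 9.42 in CD70TG CD34- cells and 8.09, 7.32, 7.83 and 7.82 in control CD34- cells. Here 1 of the 8 CD34+ arrays was above background, and the differences of all 3 chains are limited by background in CD34+ cells. The promoters of the neighbouring genes C1qb and C1qc are shown because these genes moved together, and because the letters GAGGAAGT, a form of the site of the myeloid factor PU.1, were found in 1 of them. The sequences are RefSeq's, on GRCm38.p6, both on the minus strand of chromosome 4, at chr4:136892865-136893164 for C1qc and chr4:136886151-136886450 for C1qb, each covering 250 bases before and 50 after the start. Capitals mark the match, which lies on the opposite strand and so reads as its reverse complement, 195 bases before the start of C1qc.
C1qc: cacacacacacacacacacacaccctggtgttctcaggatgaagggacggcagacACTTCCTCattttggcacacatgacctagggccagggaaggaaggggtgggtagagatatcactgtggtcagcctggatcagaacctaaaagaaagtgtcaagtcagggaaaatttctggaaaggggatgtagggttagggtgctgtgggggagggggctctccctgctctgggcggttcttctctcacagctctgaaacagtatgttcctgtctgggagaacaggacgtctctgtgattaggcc
C1qb: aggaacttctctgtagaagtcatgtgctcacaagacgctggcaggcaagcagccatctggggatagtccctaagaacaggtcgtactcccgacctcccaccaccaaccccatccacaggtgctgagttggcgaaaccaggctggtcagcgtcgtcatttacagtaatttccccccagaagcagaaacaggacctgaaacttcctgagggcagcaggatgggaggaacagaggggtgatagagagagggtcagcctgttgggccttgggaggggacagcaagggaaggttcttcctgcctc
With both strands searched, GAGGAAGT was found for 2 of the 25 named genes with a lower effect that have a promoter in the table (8%, C1qc and Slco2b1), against 3.69% of 27025 genes. Letters of an NF-kB type site, GGG and TTCCC with NN between them, were found for 0 of the 25, against 2.01% of all genes. The motifs do not overlap each other. A match describes these windows and is not a site of binding.

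**Figure D2:**
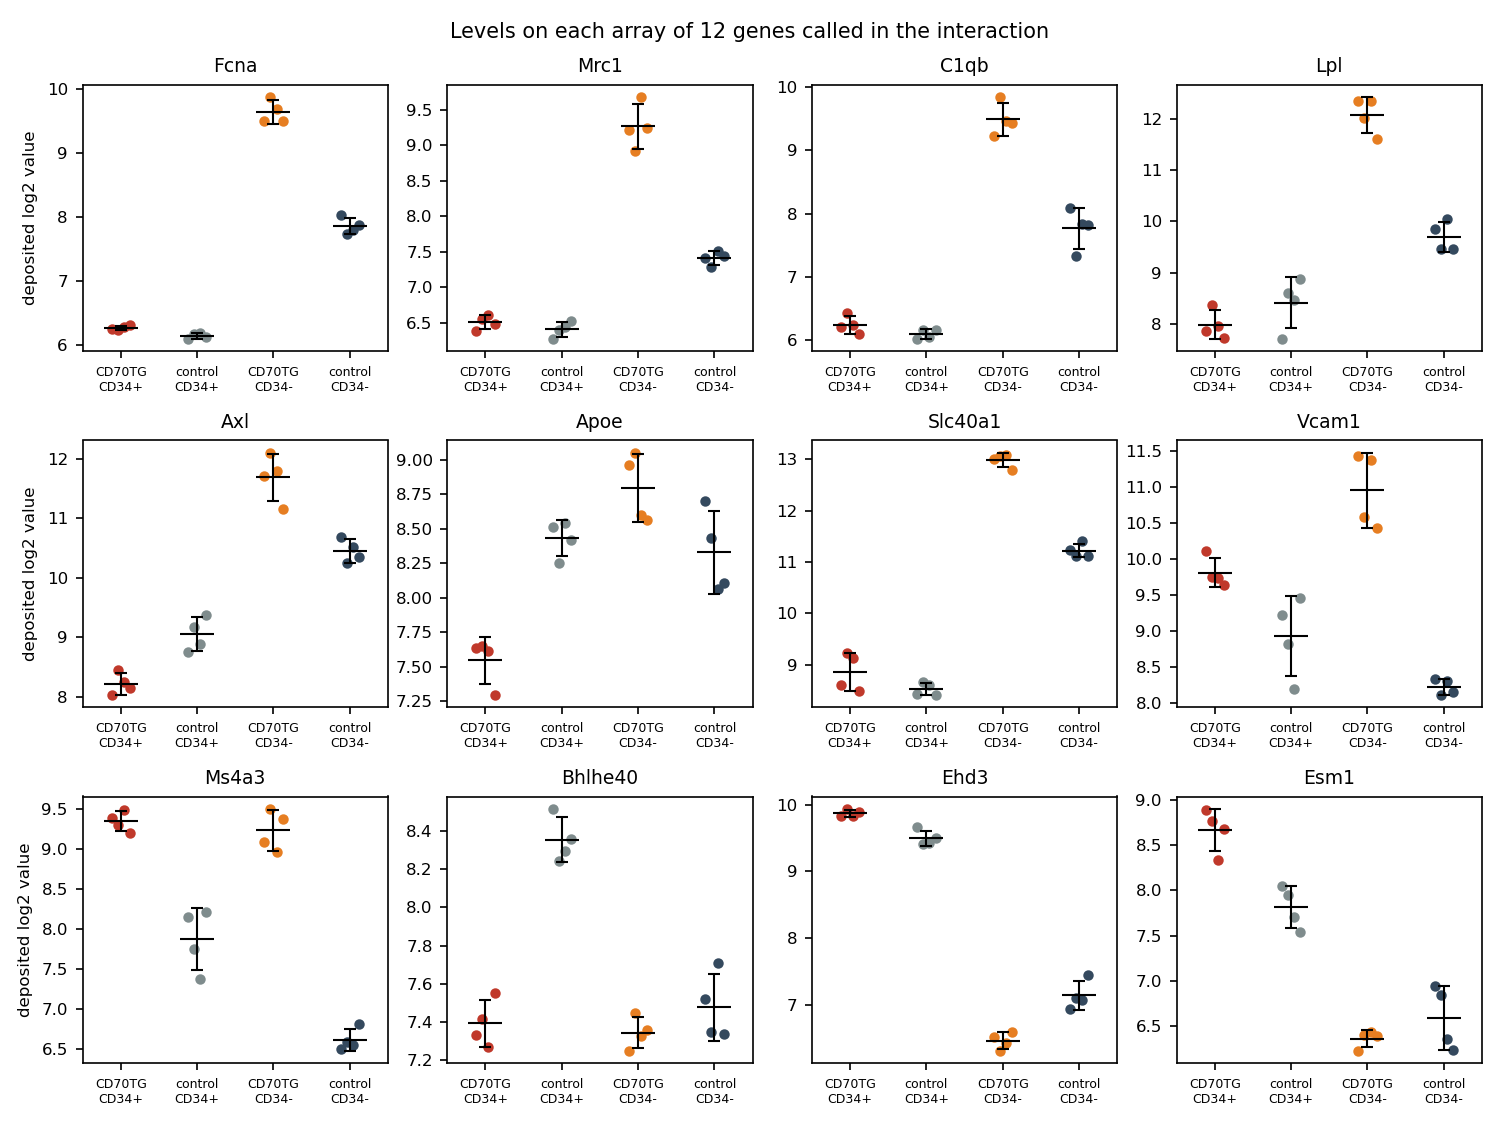
Deposited log2 values of 12 genes on each array (points), with group means (bars) and SD (whiskers), 4 arrays a group, and axes that do not start at 0. For Fcna, Mrc1, C1qb and Lpl the CD70TG CD34- arrays stand above all other arrays, whereas Bhlhe40 is highest in control CD34+ cells.

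Adgre1, an adhesion receptor widely used to mark mouse macrophages, had a called transgene effect in both fractions, 0.53 in CD34+ cells (adjusted p = 0.0103) and 1.77 in CD34- cells (adjusted p = 4.07e-08). The difference was -1.25 ± 0.19 (adjusted p = 0.00227). Slc40a1, ferroportin, the iron exporter of macrophages, had 8.61, 9.23, 9.14 and 8.48 in CD70TG CD34+ cells and 8.43, 8.66, 8.60 and 8.42 in control CD34+ cells, against 13.01, 13.07, 13.09 and 12.79 in CD70TG CD34- cells and 11.23, 11.13, 11.40 and 11.12 in control CD34- cells. All CD34- arrays lay above all CD34+ arrays, and the genotypes overlapped in the CD34+ fraction only. Its interaction was -1.43 ± 0.21 (adjusted p = 0.00136).

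Vcam1, an adhesion molecule for integrins that macrophages of the marrow and stromal cells carry, was likewise called up by the transgene in both fractions. It had 10.11, 9.75, 9.74 and 9.64 in CD70TG CD34+ cells and 9.22, 8.82, 8.20 and 9.46 in control CD34+ cells, against 11.44, 10.59, 11.37 and 10.43 in CD70TG CD34- cells and 8.33, 8.11, 8.31 and 8.15 in control CD34- cells. The genotypes did not overlap in either fraction, and the gap was wider in CD34- cells. The transgene effect was 0.89 in CD34+ cells (adjusted p = 0.015) and 2.73 in CD34- cells (adjusted p = 2.14e-07), a difference of -1.85 ± 0.34 (adjusted p = 0.0148). Without CD70TG CD34+ replicate 4 the difference was -1.79 and the call was lost (adjusted p = 0.0541), as it was with a minimum fold of 1.2 (adjusted p = 0.0546).

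Of the 23 macrophage and monocyte markers listed, 18 were measured, and 11 of them had a lower effect in CD34+ cells, 0 a higher one and 7 no call. Of all tested, 0.312% were called lower and 0.0422% higher. Cd5l, Cd68, Csf1r, Ccr2 and Ly6c2 were not measured. The median interaction of the 18 was -0.88, against -0.025 over all tested genes. Siglec1, one of the 18, passed the filter on dim probes through the CD70TG CD34- arrays alone. Its part in the counts of this list was therefore set by the filter and is no support. The transgene raised 14 of them in CD34- cells and lowered 0 (16% and 11.8% of all tested, list median 0.92). In CD34+ cells it raised 4 and lowered 2 (7.57% and 10.6% of all tested, list median 0.09). Beyond those given above, the called ones were the phagocytic receptor kinase Mertk (-0.88), the sialic acid receptor Siglec1 (-0.85) and the heme-degrading enzyme Hmox1 (-0.74), named after their values were seen. The differences of Siglec1, Hmox1 and C1qc are taken against CD34+ values at background and do not give the true size. Mertk was above background on 1 of 4 CD70TG CD34+ arrays and 0 of 4 control ones, and C1qa on 2 and 1. Their differences are thus limited by background as well. Markers without a call included the scavenger receptor Cd163 at -0.88 ± 0.26 (adjusted p = 0.266), the phosphatidylserine receptor Timd4 at -0.65 ± 0.18 (adjusted p = 0.215), and the chemokine receptor Cx3cr1 at 0.51 ± 0.15 (adjusted p = 0.266).

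The mean level of the 18 markers was 7.01 ± 0.10 (SD; 6.898 to 7.108) in CD70TG CD34+ cells and 6.88 ± 0.03 (6.842 to 6.922) in control CD34+ cells, against 8.46 ± 0.14 (8.262 to 8.569) in CD70TG CD34- cells and 7.42 ± 0.07 (7.353 to 7.511) in control CD34- cells. Every CD70TG CD34- array stood above the 4 control CD34- arrays, and these above the 8 CD34+ arrays. Of the markers, 7 were above background on all 16 arrays and 3, C1qc, Siglec1 and Hmox1, on no CD34+ array. Siglec1 was kept for its CD70TG CD34- arrays alone, so its part in these means follows from the filter. The gate of the labels is lineage-negative, and the part of macrophages among the sorted cells in these results was not tested.

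A small group had transgene effects called in opposite directions in the fractions, 5 of the 6 such genes over all tested. Axl, a receptor kinase in the uptake of dying cells, fell in CD34+ cells and rose in CD34- cells. It read 8.03, 8.46, 8.25 and 8.14 on the CD70TG CD34+ arrays and 8.75, 9.18, 8.89 and 9.38 on the control CD34+ arrays, against 11.71, 12.10, 11.79 and 11.15 on the CD70TG CD34- arrays and 10.69, 10.24, 10.52 and 10.34 on the control CD34- arrays. The genotypes did not overlap in either fraction, with CD70TG lower in CD34+ cells and higher in CD34- cells. Its transgene effect was -0.83 in CD34+ cells (adjusted p = 0.00276) and 1.24 in CD34- cells (adjusted p = 5.31e-05), an interaction of -2.07 ± 0.25 (adjusted p = 0.000268).

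Apoe, the apolipoprotein of cholesterol transport, had 7.64, 7.65, 7.62 and 7.29 in CD70TG CD34+ cells and 8.51, 8.26, 8.54 and 8.42 in control CD34+ cells, against 8.96, 9.05, 8.60 and 8.57 in CD70TG CD34- cells and 8.70, 8.44, 8.07 and 8.11 in control CD34- cells. In CD34+ cells the genotypes were clearly apart, and in CD34- cells they overlapped in part. The effect was -0.88 in CD34+ cells (adjusted p = 0.000375) and 0.47 in CD34- cells (adjusted p = 0.0257). Slco2b1, a transporter of organic anions, fell by 0.54 in CD34+ cells (adjusted p = 0.0307) and rose by 1.45 in CD34- cells (adjusted p = 5.01e-06). Ctsb, the lysosomal protease cathepsin B, fell by 0.33 in CD34+ cells (adjusted p = 0.0151) and rose by 0.57 in CD34- cells (adjusted p = 0.000159). These 4 genes were above background on all 16 arrays.

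Ehd3, which acts in the recycling of endosomes, was the gene of this group with the opposite sign. It had 9.83, 9.94, 9.83 and 9.88 in CD70TG CD34+ cells and 9.66, 9.42, 9.42 and 9.50 in control CD34+ cells, against 6.52, 6.30, 6.43 and 6.59 in CD70TG CD34- cells and 6.93, 7.11, 7.08 and 7.44 in control CD34- cells. The genotypes did not overlap in either fraction, and CD34+ cells were far above CD34- cells in both genotypes. The transgene effect was 0.37 in CD34+ cells (adjusted p = 0.0266) and -0.68 in CD34- cells (adjusted p = 0.000228). The gap between CD34+ and CD34- cells was 3.41 log2 in CD70TG mice and 2.36 log2 in control mice. On the CD70TG CD34- arrays Ehd3 was close to background, and above it on 3 of 4, which limits how low it could read there.

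Of the genes with an effect called in CD34+ cells alone, Bhlhe40 held its call best. It encodes a transcription repressor, and read 7.33, 7.42, 7.27 and 7.55 on the CD70TG CD34+ arrays and 8.52, 8.25, 8.30 and 8.36 on the control CD34+ arrays, against 7.25, 7.45, 7.33 and 7.36 on the CD70TG CD34- arrays and 7.52, 7.34, 7.71 and 7.33 on the control CD34- arrays. Control CD34+ cells stood above the other groups, which overlapped each other. The transgene effect was -0.96 in CD34+ cells (adjusted p = 3.14e-06) and -0.13 in CD34- cells (adjusted p = 0.37), a difference of -0.83 ± 0.15 (adjusted p = 0.0091). With a minimum fold of 1.2 the call was lost (adjusted p = 0.235).

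Fcgrt, the heavy chain of the neonatal Fc receptor, fell by 0.91 in CD34+ cells and its effect in CD34- cells was -0.14. The interaction of -0.77 ± 0.16 (adjusted p = 0.0431) lost its call in 13 of the 16 fits that left out 1 array (adjusted p up to 0.119). Ufsp1, a protease for the ubiquitin-like protein UFM1, fell by 0.65 in CD34+ cells, against an effect of 0.08 in CD34- cells. Its interaction was -0.73 ± 0.15 (adjusted p = 0.0381) and lost its call in 11 of those 16 fits (adjusted p up to 0.0965). Esm1, a proteoglycan secreted by endothelial cells, had 8.89, 8.77, 8.34 and 8.68 in CD70TG CD34+ cells and 8.05, 7.95, 7.71 and 7.54 in control CD34+ cells, against 6.22, 6.40, 6.43 and 6.38 in CD70TG CD34- cells and 6.94, 6.84, 6.35 and 6.23 in control CD34- cells. The genotypes were apart in CD34+ cells and overlapped near background in CD34- cells. Its interaction of 1.09 ± 0.22 (adjusted p = 0.0351) lost its call in 11 of the 16 fits (adjusted p up to 0.0937).

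The other named genes with a higher effect were small or dim. Evc2, a protein of the primary cilium, had an effect of -0.36 in CD34+ cells and -1.03 in CD34- cells, a difference of 0.67 ± 0.13 (adjusted p = 0.0196), and was above background on no CD70TG array, so the effects are limited by background. Mettl7b, a methyltransferase-like protein, differed by 0.47 ± 0.09 (adjusted p = 0.0248). Both lost the call when 1 array was left out, in 5 and in 8 of 16 fits (adjusted p up to 0.0601 for Evc2 and 0.0788 for Mettl7b).

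**Figure D3:**
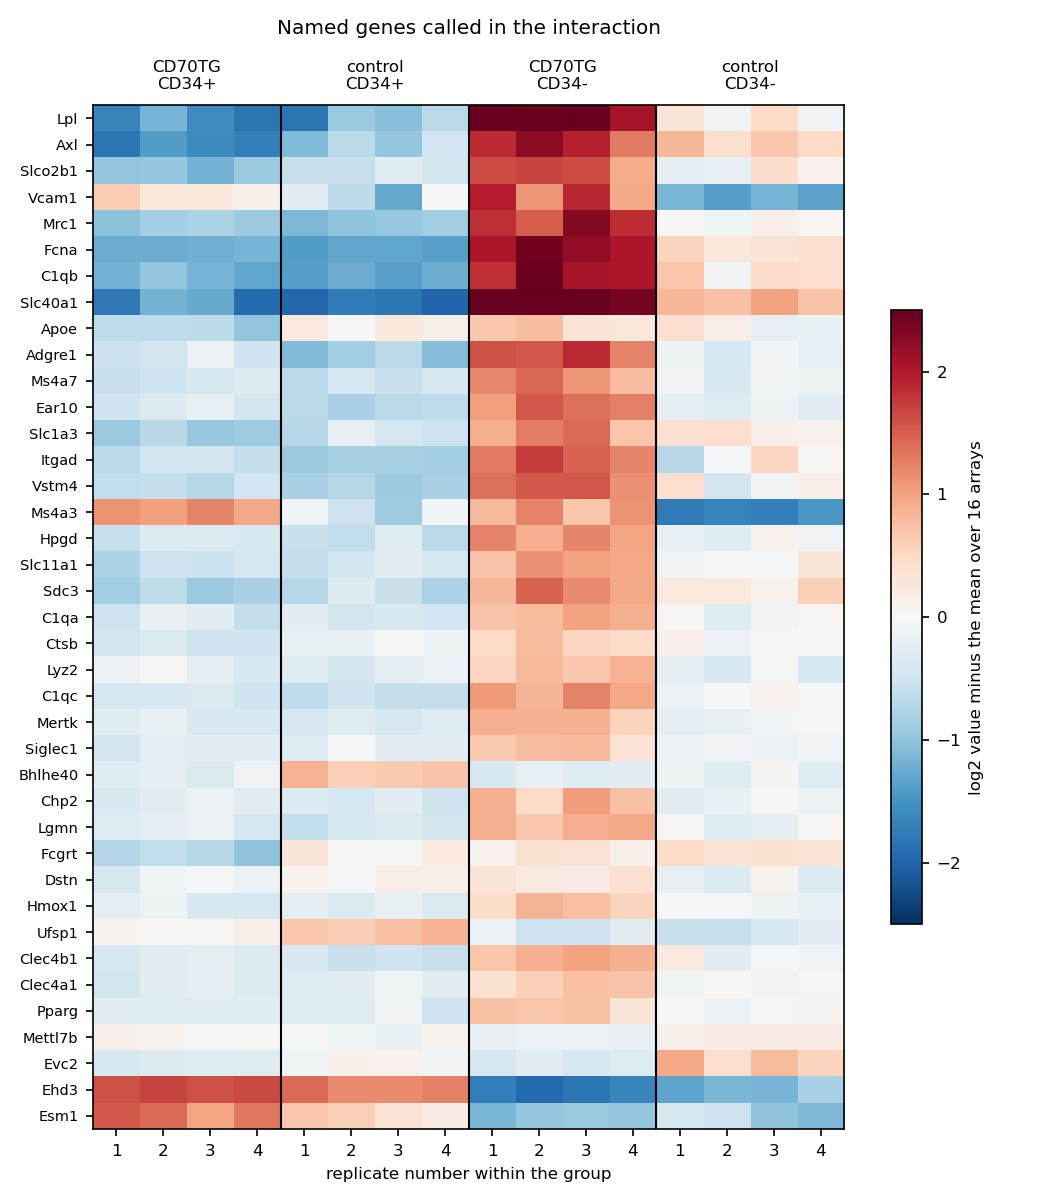
Values of the 39 named genes called in the interaction on each array (columns, by group and replicate number), as the log2 value minus the gene's mean over 16 arrays, with colours ending at 2.5 either side of 0. Most genes are high on the 4 CD70TG CD34- arrays, and Bhlhe40 and Ufsp1 are highest on the 4 control CD34+ arrays.

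Ms4a3 and Lyz2 were the 2 called genes among 22 measured genes of granules and myeloid progenitors. Both had a lower effect in CD34+ cells, as 0.312% of all tested had. Ms4a3, a membrane protein of granulocyte and monocyte progenitors, had 9.39, 9.29, 9.49 and 9.20 in CD70TG CD34+ cells and 8.15, 7.75, 7.38 and 8.20 in control CD34+ cells, against 9.08, 9.50, 8.96 and 9.38 in CD70TG CD34- cells and 6.49, 6.59, 6.55 and 6.81 in control CD34- cells. The CD70TG arrays of both fractions overlapped at one level, while the control CD34- arrays lay below all control CD34+ arrays. Its transgene effect was 1.47 in CD34+ cells and 2.62 in CD34- cells, and the difference was -1.15 ± 0.23 (adjusted p = 0.0336). The call was lost in 10 of the 16 fits that left out 1 array (adjusted p up to 0.0902). Between the fractions, Ms4a3 differed by 0.12 in CD70TG cells (adjusted p = 0.827) and by 1.26 in control cells (adjusted p = 4.95e-05).

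Lyz2, the lysozyme of neutrophils and macrophages, had an effect of 0.10 in CD34+ cells (adjusted p = 0.589) and 0.99 in CD34- cells (adjusted p = 3.22e-06). Its interaction was -0.90 ± 0.16 (adjusted p = 0.00798), and the call was lost with a minimum fold of 1.2 (adjusted p = 0.166). The other 20 genes of the list had no call, although the transgene raised 13 of the 22 in CD34+ cells (7.57% of all tested) and 16 in CD34- cells (16% of all tested), and lowered 0 in either. The granule protease Ctsg, for example, rose by 3.38 in CD34+ cells and by 3.85 in CD34- cells, with an interaction of -0.47 ± 0.35 (adjusted p = 0.853). The peroxidase Mpo rose by 2.05 and 2.30, with an interaction of -0.25 ± 0.20 (adjusted p = 0.864). In the list of 18 late neutrophil markers, Lyz2 was again the 1 call (0.312% of all tested were called lower). The list's mean level was 9.53 ± 0.24 in CD70TG CD34+ cells and 9.06 ± 0.17 in control CD34+ cells. It was 10.61 ± 0.41 in CD70TG CD34- cells and 9.94 ± 0.19 in control CD34- cells.

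The called genes in no list, 22 of the 35 named lower ones, included Fcna, Lpl and Apoe as well as the following. Ear10, a ribonuclease of the eosinophil-associated family, differed by -1.22 ± 0.15 (adjusted p = 0.000257), and the membrane protein Ms4a7 by -1.23. Slc1a3, a glutamate transporter, differed by -1.21, and the integrin chain Itgad by -1.18, the last with the call lost in 13 of 16 fits that left out 1 array (adjusted p up to 0.107). Outside the naming rule, and named after their values were seen, the other lower genes were the metal transporter Slc11a1 (-1.03), the prostaglandin-degrading enzyme Hpgd (-1.10), the lysosomal protease Lgmn (-0.79), the lectins Clec4a1 (-0.72) and Clec4b1 (-0.73), the proteoglycan Sdc3 (-1.02), the nuclear receptor Pparg (-0.63), the actin-severing protein Dstn (-0.76), Vstm4 (-1.17) and Chp2 (-0.81). Among these, Pparg was called in 10 of 29 alternative fits, Dstn in 13 of 30, Sdc3 in 19 of 30 and Clec4b1 in 24 of 29. The difference of Hpgd and of Chp2 is taken against CD34+ values at background. On the CD70TG and control CD34+ arrays, Clec4a1 was above background on 0 and 1 of 4, and Clec4b1 on 2 and 1. Vstm4 was so on 3 and 0, Itgad on 4 and 0, and Slc1a3 on 0 and 4. The differences of these genes are thus limited by background in part. For 5 called genes with other probes above background (Adgre1, Slc11a1, Lyz2, Ms4a3 and Itgad), the 8 further probes had the same sign, by -1.77 to -0.06, and 3 of them passed the test. A probe each of Slc11a1 (-0.06), Lyz2 (-0.135) and Itgad (-0.09) lay near 0. Among genes above background on all 16 arrays, Itgad was read by the last of these probes and had no call (limma adjusted p = 0.962).

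The megakaryocyte and platelet markers had no call, but most lay on one side. Of 22 listed, 15 were measured, 13 had a negative interaction, and 9 were lower at an unadjusted p under 0.05, with a list median of -0.52. Of all 11849 tested, 6620 were negative and 618 were lower at that p, with a median of -0.025. The platelet chemokine Pf4 had -1.04 ± 0.23 (adjusted p = 0.073), the ADP receptor P2ry1 -0.84 ± 0.19 (adjusted p = 0.0698) and the platelet glycoprotein Gp1bb -0.70 ± 0.16 (adjusted p = 0.0846). The transgene lowered 10 of the 15 and raised 0 in CD34+ cells (10.6% and 7.57% of all tested). In CD34- cells it lowered 5 and raised 3 (11.8% and 16% of all tested). Their mean level was 9.18 ± 0.02 in CD70TG CD34+ cells and 9.79 ± 0.11 in control CD34+ cells, against 9.05 ± 0.11 in CD70TG CD34- cells and 9.21 ± 0.11 in control CD34- cells. Control CD34+ arrays were the highest on this measure and overlapped no other group, and the part of megakaryocytes among the sorted cells was not tested. Vwf, the clotting protein that also marks platelet-biased HSC, fell by 1.86 in CD34+ cells and by 1.70 in CD34- cells, with an interaction of -0.16 ± 0.19 (adjusted p = 0.944).

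**Figure D4:**
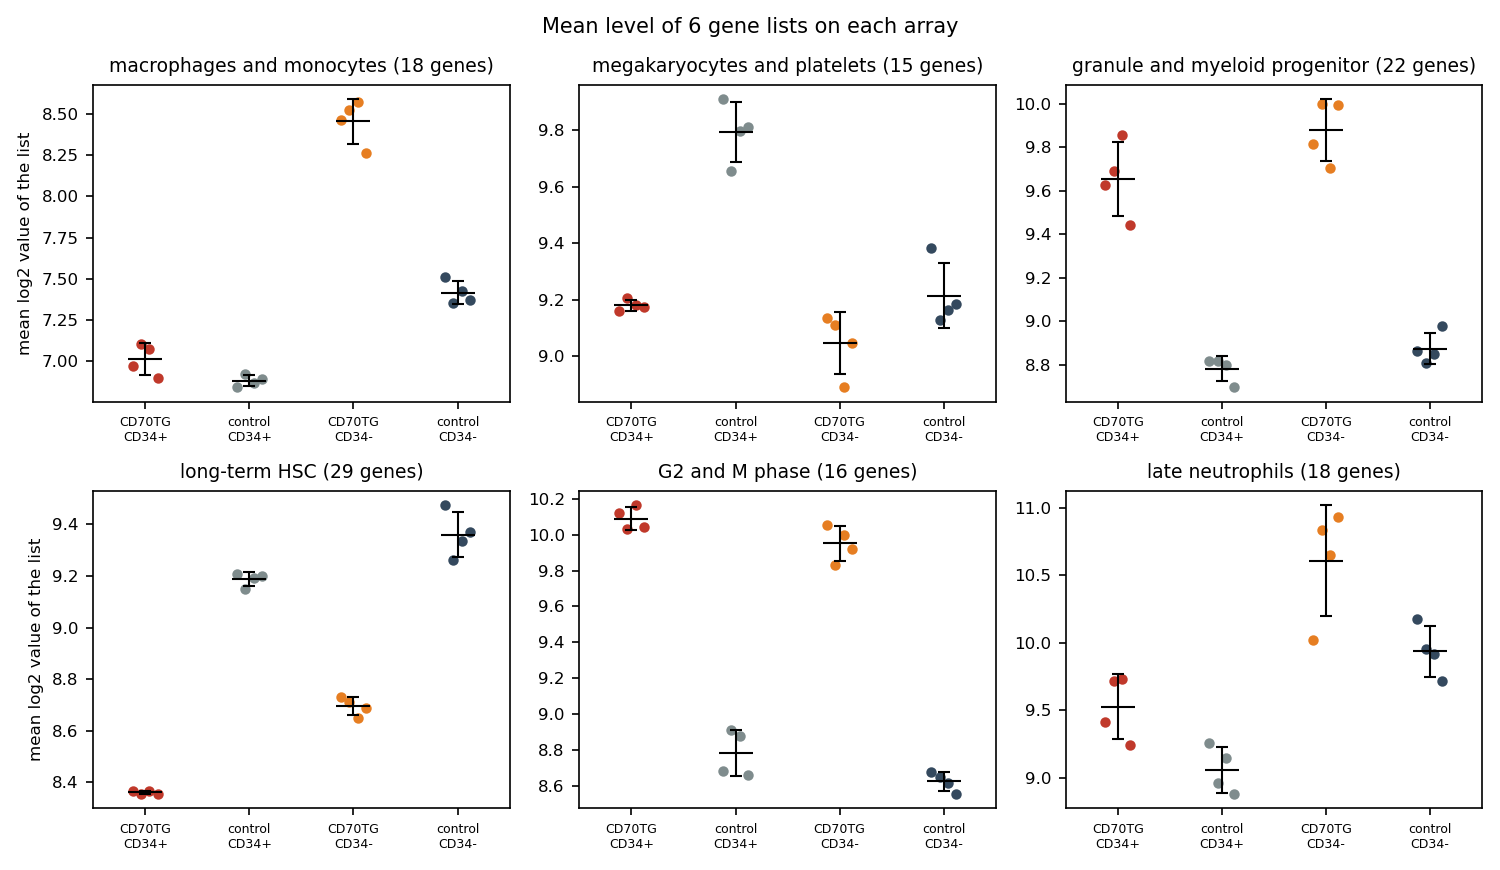
Mean log2 value of 6 gene lists on each array (points), with group means and SD, 4 arrays a group, and axes that do not start at 0. The macrophage list is highest on the CD70TG CD34- arrays and the megakaryocyte list on the control CD34+ arrays, while the G2 and M phase list differs by genotype to a like extent in both fractions.

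Stem cell and cell cycle genes, which moved widely with the transgene, had no interaction call by limma. Of 29 long-term HSC genes, 19 fell in CD34+ cells (10.6% of all tested) and 19 in CD34- cells (11.8%). Their median interaction was -0.14, with 24 of the 29 negative and 4 lower at an unadjusted p under 0.05. Over all 11849 tested the median was -0.025, with 6620 negative and 618 lower at that p. Their mean level was 8.36 ± 0.01 in CD70TG CD34+ cells and 9.19 ± 0.03 in control CD34+ cells, against 8.70 ± 0.04 in CD70TG CD34- cells and 9.36 ± 0.09 in control CD34- cells. The G2 and M phase list, with 16 genes measured, rose as a whole in CD34+ cells (16 calls) and nearly so in CD34- cells (15 calls). Of all tested genes, 7.57% were called higher in CD34+ cells and 16% in CD34- cells. The list's interactions ran between -0.40 and 0.23 with a median of -0.04, and 0 were past an unadjusted p of 0.05. Of 24 S phase genes, 15 rose in CD34+ cells (7.57% of all tested) and 17 in CD34- cells (16%). Their median interaction was -0.07, with 1 lower at an unadjusted p under 0.05 (618 of all 11849 tested were). A missed threshold does not show that the effects were equal.

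NF-kB and TNF receptor family genes, the pathway in which CD27 signals, had 0 calls among 25 measured, with a median of 0.13 and 18 positive values (2 higher and 2 lower at an unadjusted p under 0.05). Of all 11849 tested, 5227 were positive, and 251 were higher and 618 lower at that p. Type I interferon induced genes had 0 calls among 26 (median -0.06, 4 lower at an unadjusted p under 0.05), and genes induced by interferon gamma 0 among 27 (median -0.03, 0 at that p). The lists not described here had 0 calls each. The plot of interactions by list shows the macrophage and megakaryocyte medians to the left of the others.

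**Figure D5:**
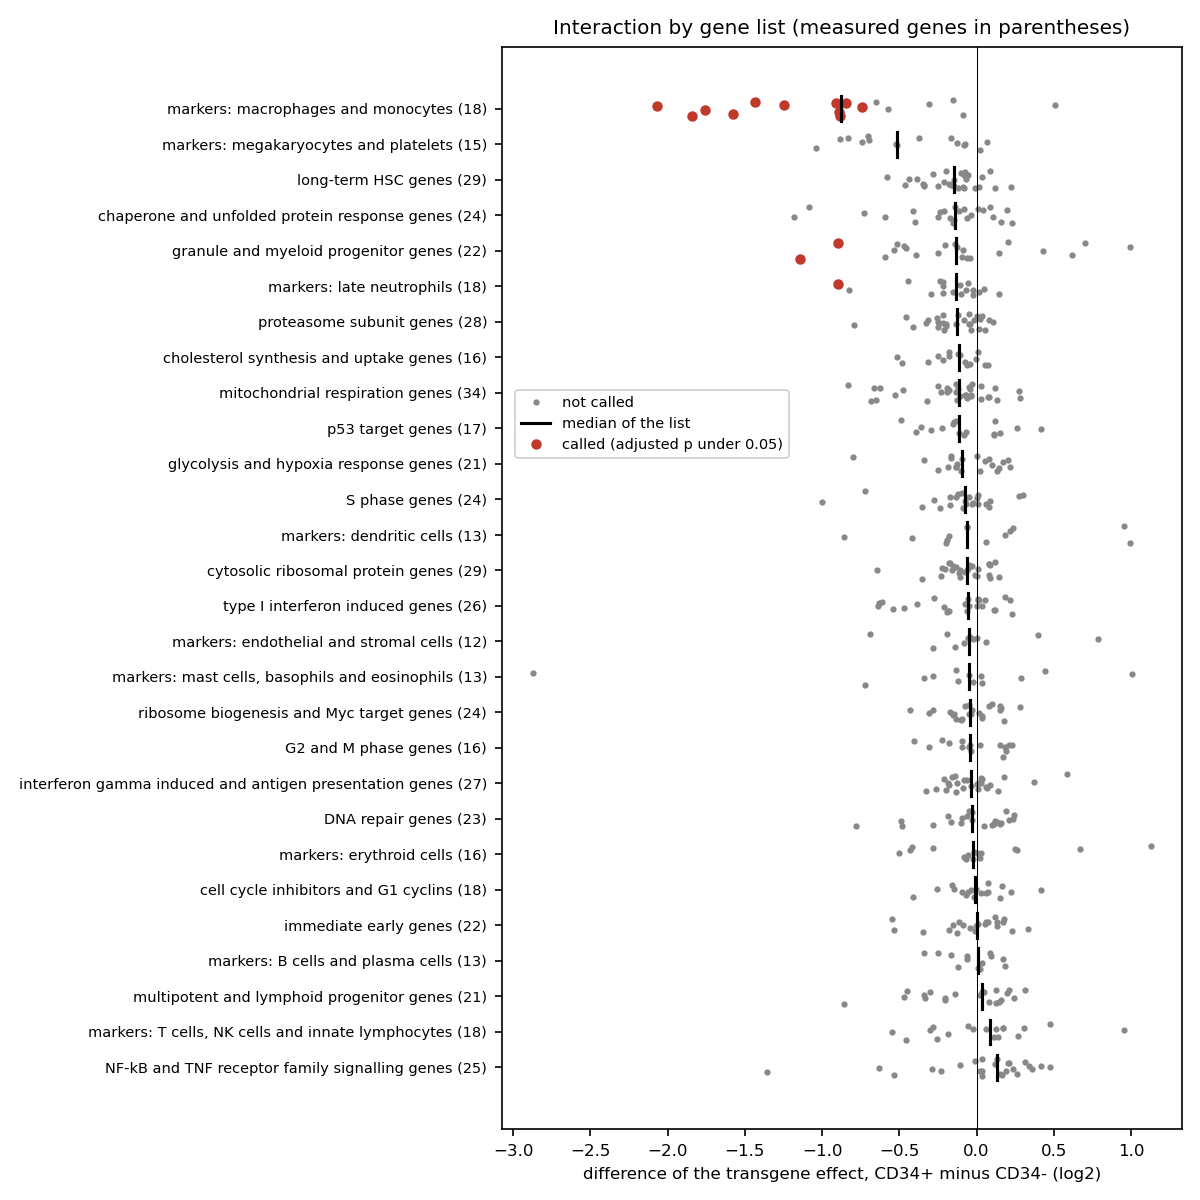
Interaction of each measured gene (points, log2, CD34+ minus CD34-) in each list with at least 10 measured genes, with the list's median as a bar and called genes in red. Red points occur in the macrophage list (11), the granule list (2) and the late neutrophil list (1).

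Of the genes of the gate and the design, none had a called interaction. Cd27, the receptor of CD70, had 0.04 (95% interval -0.34 to 0.41, adjusted p = 0.991), and Slamf1, the CD150 marker of HSC, -0.12 (-0.47 to 0.22, adjusted p = 0.959). Slamf1 was above background on 1 of 4 CD70TG CD34+ and 2 of 4 CD70TG CD34- arrays, which limits how low it could read there. Flt3, a cytokine receptor of multipotent progenitors, had -0.86 (-2.06 to 0.35, adjusted p = 0.819), and Cd48 had -0.47 (-1.27 to 0.33, adjusted p = 0.873). Flt3 was above background on 2 of 4 control arrays in each fraction. In CD34+ cells the transgene effect was 1.08 for Flt3 (adjusted p = 0.073) and 1.21 for Cd48 (adjusted p = 0.00391), and in CD34- cells both rose, Flt3 by 1.94 and Cd48 by 1.68. Fcgr3, the CD16 receptor, had -0.54 (-0.80 to -0.27, adjusted p = 0.089), and was called with an array index of probe disagreement as a covariate (adjusted p = 0.00844). It was above background on 2 CD70TG and 1 control CD34+ arrays and on 1 control CD34- array, so its size is limited by background. Cd70 itself had -1.35 (-2.27 to -0.43, adjusted p = 0.363), and without control CD34+ replicate 4 it was called at -1.75 (adjusted p = 0.0147). Cd70 was above background on 0 of the 8 CD34- arrays, so its transgene effect there could not be read and neither value gives the true size. Il7r had 0.02 (-0.73 to 0.78, adjusted p = 0.995), and no probe was found under the symbols Kit and Ly6a.

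Seen from the other side, the interaction is also the difference of the fraction effects of the genotypes, which share the arrays above. Between fractions, 709 genes (5.98%) were called in CD70TG cells and 985 (8.31%) in control cells. Of the 37 genes with a lower effect, 33 were lower in CD34+ than in CD34- cells of CD70TG mice (4.39% of all tested) and 1 was higher (1.6%). In control mice 19 were lower (4.33%) and 4 higher (3.98%). These genes were picked by the same contrast, so the counts follow in part from that selection. Slc40a1, for example, differed between the fractions by -4.13 in CD70TG cells and by -2.69 in control cells.

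An index of disagreement between the 2 bright probes of 1184 genes, taken for each array, was set beside these results. Whether the index is technical in origin was not tested. It averaged 0.86 ± 0.32 in CD70TG CD34+ arrays and -0.38 ± 0.77 in control CD34+ arrays, against 0.71 ± 0.62 in CD70TG CD34- arrays and -1.19 ± 0.41 in control CD34- arrays. Its difference between the genotypes was 1.24 in CD34+ cells (exact permutation p = 0.0571) and 1.91 in CD34- cells (exact permutation p = 0.0286, the smallest for 4 against 4 arrays), and neither passed after adjustment over 3 tests (both 0.0857). Its interaction was -0.66 (two-sided exact permutation p = 0.518). With the index as a covariate 53 genes were called, among them 40 of the 42.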

How the data were processed

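RNA of sorted HSC fractions was amplified in repeated rounds, labelled with biotin and hybridised to Illumina bead arrays, per the labels' protocols. All values come from the table of log2-like values that the authors deposited, with 25697 probes on 16 arrays. How the background was corrected, how arrays were normalized and which log base was taken are stated in no source used here. If the base is 2, a difference of 1 is a doubling. A second table with 32 columns of per-sample values for 16 arrays was not used, since no sample label matches its columns.

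The background of an array was taken from its values under the mode (density bandwidth 0.1), and 15551 probes that passed the mode by 1.64 background SD on 4 or more arrays were kept. Gene symbols are those of GEO's platform annotation, brought up to date with RefSeq by gene number (23978 probes with 1 symbol, 0 with several, 1719 with none; 23962 matched by number). Of several kept probes of a gene the brightest was used, giving 11849 features, 10905 of them named. No 2 arrays shared more than 0.288% identical values.

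Contrasts were fitted with limma 3.58.1 in R 4.3.3 (lmFit on 4 group means, 12 residual degrees of freedom, eBayes with a trend, Benjamini-Hochberg over all features, threshold 0.05), after the script was checked on simulated arrays. A gene "called" passed that threshold. The index of probe disagreement was tested by exact permutation of genotype labels within fractions, two-sided. Named genes were the 15 largest called differences in each direction, up to 4 called members of each of 29 lists, the 4 called genes of smallest p of each pattern of genotype effects, and the gate and design genes. The contrast, the lists and the rule were chosen with earlier results of these data known, so none is independent support. The labels do not say that replicate numbers mark shared mice, so numbers were not used as pairs. Of 24 same-numbered pairs of arrays, 10 deviated together (r over 0.1). Some pairs with different numbers did so as well, with r up to 0.554. Only the 8 same-numbered pairs within a genotype could share mice. Of these, 4 had r over 0.1 (from -0.307 to 0.653 over the 8), which leaves the pairing undecided. Alternatives tried were other filters, each probe on its own, quantile normalization, equal array medians, replicate blocks, array weights, a minimum fold of 1.2, no trend, the index as a covariate and leaving out arrays. The number of arrays limits the precision, and p-values cover the spread between pools of 2 mice. Promoters came from RefSeq's table on GRCm38.p6, which held 25 of the 35 named lower genes.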

Additional observations from a re-analysis of the deposited data

Results flagged for a closer look

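The differences of the transgene effect between the fractions, CD34+ minus CD34-, that passed the test and are singled out by the naming rule are these, in log2. Higher in CD34+ cells were Esm1 (1.09), Ehd3 (1.05), Evc2 (0.67), Mettl7b (0.47) and the unnamed probe ILMN_1241293 (1.12), whose call was lost in 20 of 29 alternatives. Lower in CD34+ cells were Lpl (-2.81), Axl (-2.07), Slco2b1 (-1.99), Vcam1 (-1.85), Mrc1 (-1.76), Fcna (-1.66), C1qb (-1.58), Slc40a1 (-1.43), Apoe (-1.35) and the unnamed probe ILMN_2814127 (-1.28). Also lower were Adgre1 (-1.25), Ms4a7 (-1.23), Ear10 (-1.22), Slc1a3 (-1.21), Itgad (-1.18), Ms4a3 (-1.15), Lyz2 (-0.90), Ctsb (-0.90), C1qc (-0.89), Bhlhe40 (-0.83), Fcgrt (-0.77) and Ufsp1 (-0.73).

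Among 152 groups of 4 arrays checked for an array apart from the other 3 by Dixon's criterion, 7 had one, where chance alone marks about 1 in 20. Apoe read 7.30 on CD70TG CD34+ replicate 4, against 7.62 to 7.65 on the other replicates. Slco2b1 read 9.86 and Il7r 8.82 on CD70TG CD34- replicate 4, against 10.56 to 10.62 and 9.21 to 9.27. Flt3 read 6.73 on CD70TG CD34- replicate 2, against 8.86 to 9.03. Cd27 read 12.20 on control CD34+ replicate 4, against 12.68 to 12.77, and 12.54 on control CD34- replicate 2, against 12.94 to 12.96. Ms4a7 read 6.64 on control CD34- replicate 2, against 6.90 to 6.95.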

How the results depend on the processing

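The 42 interaction calls became 19 with a minimum fold of 1.2 and 18 among genes above background on all 16 arrays, where fewer genes were tested, and lay between 31 and 58 in the other fits with all arrays (31 with quantile normalization, 58 with array weights). Leaving out 1 array gave 29 calls (without CD70TG CD34+ replicate 4) to 58 (without control CD34- replicate 3). The replicate number as a fixed block gave 46 calls, 41 of them among the 42, and as a random block 44, while 5 of 16 arrays matched best to their own number. Genotype and number together as a random block, a setting added after the data were seen, gave 53 calls, all 42 among them. None of the 27 named calls changed sign, while the uncalled interactions of Cd34, Cd27, Ifng and Il7r, all near 0, took either sign across alternatives. Of the 27, 16 held in every alternative that gave a value and 18 in all but the minimum fold.

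The transgene effect in CD34+ cells had 2152 calls, but 3317 with array weights, 545 with the minimum fold and 1007 with the index of probe disagreement as a covariate, and 1457 to 2737 when 1 array was left out. In CD34- cells the 3288 calls became 1081 with the minimum fold and 644 with the index, and 2518 to 3549 when 1 array was left out. Quantile normalization turned the split of these calls from mostly higher (1891 higher, 1397 lower) to mostly lower (1618 higher, 2001 lower). The fraction effect in CD70TG cells had 709 calls, 1415 with array weights, 286 with the minimum fold and 535 to 742 without 1 array. That in control cells had 985, 211 with the minimum fold and 623 to 1173 without 1 array, with 637 without control CD34+ replicate 4 and 623 without control CD34- replicate 4. The causes were not tested.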

Other observations

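Some differences outside the naming rule were large but did not pass the test, and were picked after their values were seen. Prg2, a granule protein of eosinophils, had an interaction of -2.87 ± 0.79 (limma adjusted p = 0.21), with a transgene effect of -0.76 in CD34+ cells (adjusted p = 0.371) and 2.11 in CD34- cells (adjusted p = 0.00794). Tpsb2, a tryptase of mast cells, had 1.00 ± 0.27 (adjusted p = 0.198), with an effect of 1.30 in CD34+ cells (adjusted p = 8.74e-05) and 0.30 in CD34- cells (adjusted p = 0.261). Irf8, a transcription factor of monocytes and dendritic cells, rose by 1.97 in CD34+ cells and by 0.97 in CD34- cells, with an interaction of 0.99 ± 0.33 (adjusted p = 0.407). Among 13 measured mast cell, basophil and eosinophil markers, 0 were called by limma, with 3 higher and 3 lower at an unadjusted p under 0.05 and a median of -0.05. Of all 11849 tested, 251 were higher and 618 lower at that p, with a median of -0.025.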
